A study of Homo sapiens with 2 samples.

Results

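The SLC25 genes encode the mitochondrial carriers, the transport proteins that move nucleotides, phosphate, amino acids, carboxylates and cofactors across the inner membrane of mitochondria. Their messenger RNAs were examined in cells of the colorectal carcinoma line HCT116 after knockdown of LAST, a long noncoding RNA induced by c-Myc. All records of the deposited gene table whose symbol starts with SLC25A were taken. There were 37 of them among 11420, for 36 genes, because SLC25A6 lies in a pseudoautosomal region and was listed once on X and once on Y. The other 12 SLC25A genes of the GENCODE 29 annotation were not analysed here (SLC25A2, SLC25A18, SLC25A21, SLC25A31, SLC25A34, SLC25A35, SLC25A41, SLC25A45, SLC25A47, SLC25A48, SLC25A52 and SLC25A53).

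The study compared HCT116 cells carrying a lentiviral LAST shRNA with HCT116 cells carrying a lentiviral control shRNA, both harvested 96 hr after infection. Each group had 1 library, so no value below has an SD or a p-value, and no difference has a replicate check. Values are FPKM, fragments scaled to transcript length and to library size, and summed to 155390 over the table in LAST shRNA cells and to 154798 in control shRNA cells. The number of reads behind them is unknown. The labels could not be checked against LAST, which was not analysed here, and only 1 of the study's shRNAs against it was sequenced. The 6 measured markers of colon epithelium had log2 ratios of FPKM + 1, LAST shRNA over control shRNA, from -0.35 to 0.45. CDX2 was at 1.02 in LAST shRNA cells and 1.58 in control shRNA cells (-0.35), KRT8 at 215 and 234 (-0.12), EPCAM at 139 and 137 (0.02), KRT18 at 294 and 271 (0.12), KRT19 at 182 and 151 (0.27) and CDH1 at 22.0 and 15.8 (0.45). VIL1, a further marker of colon epithelium, and PTPRC, PECAM1, COL1A2 and ALB, which mark other cells, were among the genes not analysed here.

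Carriers share a fold made of a repeated pair of membrane helices, and most of them exchange a solute of the matrix for a solute of the cytosol. The ADP/ATP carriers bring ADP in and send ATP out, and together with the phosphate carrier they feed the ATP synthase. Other members export citrate for fatty acid and sterol synthesis, carry the malate-aspartate shuttle that moves reducing equivalents into mitochondria, or import iron, glycine, folate and coenzyme A.

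As a family the carriers were not displaced, but a few abundant ones were lower in LAST shRNA cells. The difference is given as a log2 ratio, log2(FPKM + 1) in LAST shRNA cells minus log2(FPKM + 1) in control shRNA cells, which understates differences of weakly expressed genes, and the study's threshold of 0.58 was used in both directions. Of the 37 records 5 were at -0.58 or below (13.5%), against 5.88% of all records, and 1 was at 0.58 or above (2.70%), against 6.80% of all records. The 5 lower records belong to 4 genes, SLC25A5, SLC25A6, SLC25A11 and SLC25A38, and the higher one is SLC25A16. The median log2 ratio was 0.01 for the carriers and 0.01 for all records. Of the carriers 18 were below 0 and 19 above, and 22 of 37 (59.5%) lay within 0.2 of 0, against 52.4% of all records. With the values rescaled to TPM, 6 records were lower and 3 were higher, because SLC25A40 (-0.64), SLC25A27 (0.76) and SLC25A42 (0.65) then passed the threshold. These were 16.2% and 8.11% of the carriers, against 8.56% lower and 10.5% higher over all records with TPM.

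**Figure D1:**
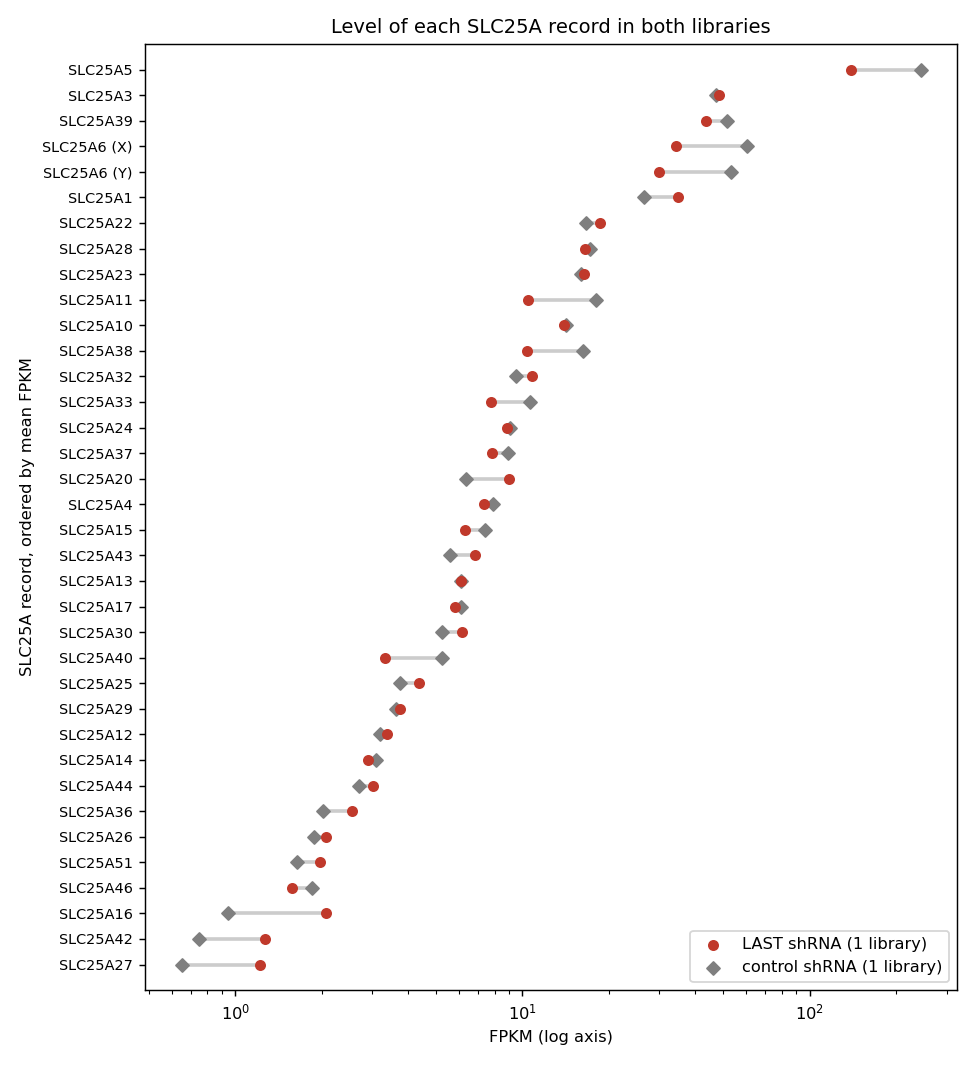
FPKM of 36 of the 37 SLC25A records on a log axis, in LAST shRNA cells (circles) and control shRNA (diamonds), 1 library each, ordered by the mean of both. SLC25A5 stands highest in both libraries (139.6 and 243), and the widest gaps among abundant records are those of SLC25A5, both records of SLC25A6, SLC25A11 and SLC25A38.

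The carriers spanned a wide range of levels, which FPKM allows to be compared because it is scaled to length. SLC25A5 was the highest, at an FPKM of 139.6 in LAST shRNA cells and 243 in control shRNA cells, a mean above 99.4% of all records. With its 2 records summed, SLC25A6 came next by mean level (64.1 and 114), followed by the phosphate carrier SLC25A3 (48.4 and 47.3) and SLC25A39, a carrier needed for glutathione in mitochondria (43.6 and 51.4). By its X record alone SLC25A6 had a mean of 47.47, just below SLC25A39 (47.49) and SLC25A3 (47.86). The lowest were SLC25A27 (1.21 and 0.653), SLC25A42 (1.27 and 0.749) and SLC25A16 (2.06 and 0.947). All 37 records reached an FPKM of 1 in a library, and 34 did so in both. None was listed at 0.

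The main difference was in the ADP/ATP carriers. SLC25A5, the isoform typical of proliferating cells, was 1.74-fold lower in LAST shRNA cells, at 139.6 against 243 in control shRNA cells (log2 ratio -0.80). SLC25A6, the isoform found in most tissues, was at 34.2 against 60.8 in its X record (-0.81) and at 29.9 against 53.0 in its Y record (-0.80). Both SLC25A6 records describe the same sequence, so their values are not separate evidence. Whether the records split the reads of this gene or count the same reads in both places is not given. Summed, SLC25A6 was at 64.1 in LAST shRNA cells and 114 in control shRNA cells, 1.78-fold lower (-0.82). SLC25A4, the isoform of heart and muscle, was at 7.37 in LAST shRNA cells and 7.92 in control shRNA cells (-0.09). Of the 3 measured isoforms, the abundant pair was thus lower by similar factors and the weakly expressed one was close to equal.

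This class held most of the difference in the family's total. Over all carriers, summed FPKM was 541 in LAST shRNA cells and 703 in control shRNA cells, 1.30-fold lower, or 0.348% and 0.454% of the summed FPKM of the table. The 4 ADP/ATP carrier records, with both SLC25A6 records counted, summed to 211 in LAST shRNA cells and 365 in control shRNA cells, 1.73-fold lower. They made up 39.0% of all carrier FPKM in LAST shRNA cells and 51.9% in control shRNA cells. The other 33 records summed to 329.9 and 338, a ratio of 0.975.

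**Figure D2:**
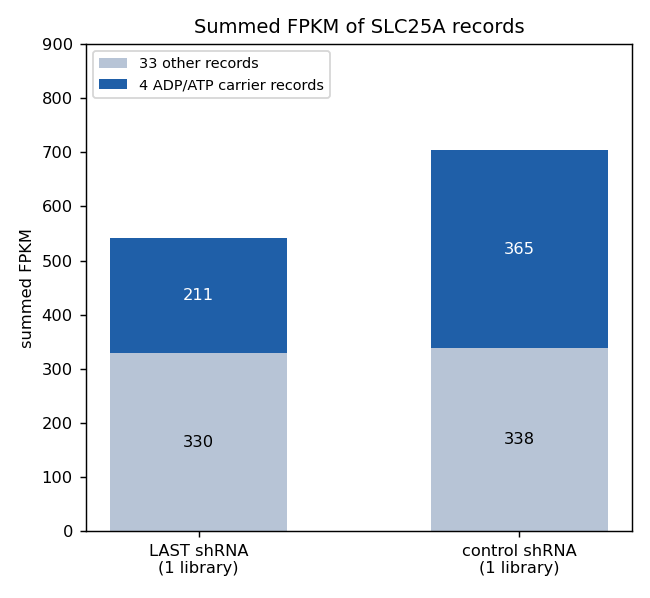
Summed FPKM of the 4 ADP/ATP carrier records (dark) and the 33 other SLC25A records (light) in LAST shRNA cells and in control shRNA cells, 1 library each. The dark part is 211 against 365 and the light part 329.9 against 338.

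In hg19 SLC25A5, on the plus strand of chromosome X, spans 118602363 to 118605282. SLC25A6, on the minus strand, spans 1505045 to 1511617 of chromosome X and 1455045 to 1461617 of chromosome Y. Both have 4 exons and a coding length of 298 codons, as does SLC25A4. SLC25A5 has 9 named pseudogenes in GENCODE 29 and SLC25A6 has 6, which could take or lend reads. Of all 50-base windows of the longest coding transcript, 18.8% of those of SLC25A5 also occurred in transcripts of other genes, among them its antisense partner and pseudogenes, against 0.94% for SLC25A6. Their part in the values was not tested.

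The 250 bases upstream of the RefSeq starts (build GRCh38.p14) of SLC25A5 and SLC25A6 are shown side by side, in 5′ to 3′ direction of the gene. These genes were picked by their ratios, and a link of sequence to ratio was not tested. Capitals mark every match on either strand to GGGCGG, the GC box, and to CCAAT. SLC25A5 is at chrX:119468194-119468443 on the plus strand and SLC25A6 at chrX:1392114-1392363 on the minus strand.
SLC25A5: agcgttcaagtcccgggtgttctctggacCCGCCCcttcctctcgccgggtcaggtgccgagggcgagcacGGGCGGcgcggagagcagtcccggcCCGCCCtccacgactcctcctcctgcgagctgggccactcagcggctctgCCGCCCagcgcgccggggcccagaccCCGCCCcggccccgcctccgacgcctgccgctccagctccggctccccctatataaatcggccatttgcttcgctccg
SLC25A6: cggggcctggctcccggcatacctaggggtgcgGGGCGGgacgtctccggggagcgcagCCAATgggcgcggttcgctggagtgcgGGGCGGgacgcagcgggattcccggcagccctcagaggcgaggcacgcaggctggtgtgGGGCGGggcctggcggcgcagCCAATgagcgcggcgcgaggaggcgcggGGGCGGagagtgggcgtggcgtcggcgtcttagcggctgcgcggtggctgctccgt
SLC25A5 held 5 GC boxes and no CCAAT, and SLC25A6 held 4 GC boxes and 2 CCAAT. A GC box was found in 23 of the 31 carrier genes with a RefSeq promoter (74.2%) and in 69.6% of 8846 promoters of genes in the table. CCAAT was found in 15 of 31 (48.4%), against 35.2%. These are matches of letters and not shown to be sites of binding.

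Among the carriers of citrate, dicarboxylates and 2-oxoacids the measured members differed from one another. SLC25A11, the exchanger of 2-oxoglutarate and malate, was 1.73-fold lower in LAST shRNA cells, at 10.4 against 18.1 in control shRNA cells (-0.74). SLC25A1, which exports citrate from mitochondria, was at 34.7 in LAST shRNA cells and 26.4 in control shRNA cells (0.38). The dicarboxylate carrier SLC25A10 was at 13.9 and 14.1 (-0.02). The class therefore held 1 lower member of 3 (33.3%, against 5.88% of all records), 1 member above 0 that did not reach the threshold, and 1 that was nearly equal.

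SLC25A11 works in the malate-aspartate shuttle together with the aspartate-glutamate carriers, whose ratios were small. SLC25A12, known as aralar, was at 3.36 in LAST shRNA cells and 3.20 in control shRNA cells (0.05). SLC25A13, known as citrin, was at 6.12 and 6.09 (0.01). The glutamate carrier SLC25A22 was at 18.6 and 16.6 (0.15). Of the 4 enzymes of the shuttle 1 was lower (25%, against 5.88% of all records), and their median log2 ratio was 0.02. The lower one was GOT1, the cytosolic aspartate aminotransferase, at 18.7 in LAST shRNA cells against 35.5 in control shRNA cells (-0.89). Its mitochondrial partner GOT2 (44.2 in LAST shRNA cells and 43.0 in control shRNA cells), and the malate dehydrogenases MDH1 (31.9 and 30.3) and MDH2 (61.0 and 60.8), had log2 ratios of 0.04, 0.07 and 0.00.

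Of the 4 measured carriers of basic amino acids, glycine and branched-chain amino acids, 1 was lower (25%, against 5.88% of all records). SLC25A38, which brings glycine into mitochondria for heme synthesis, was 1.57-fold lower in LAST shRNA cells, at 10.4 against 16.3 in control shRNA cells (-0.60), just past the threshold. The ornithine carrier SLC25A15, needed for the urea cycle in liver, was at 6.32 and 7.38 (-0.19). SLC25A29, a carrier of basic amino acids, was at 3.76 and 3.62 (0.04), and SLC25A44, which carries branched-chain amino acids, at 3.03 and 2.70 (0.12).

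The promoters of SLC25A11 and SLC25A38, the other lower carriers, are shown for comparison. Capitals mark matches on either strand to the GC box and CCAAT, as above, to CACGTG, the E-box of MYC and related factors, to CCGGAAG, a core of ETS factor motifs, and to GCGCATGC, a core of the motif of NRF1, a regulator of mitochondrial genes. SLC25A11 is at chr17:4940047-4940296 on the minus strand and SLC25A38 at chr3:39383120-39383369 on the plus strand.
SLC25A11: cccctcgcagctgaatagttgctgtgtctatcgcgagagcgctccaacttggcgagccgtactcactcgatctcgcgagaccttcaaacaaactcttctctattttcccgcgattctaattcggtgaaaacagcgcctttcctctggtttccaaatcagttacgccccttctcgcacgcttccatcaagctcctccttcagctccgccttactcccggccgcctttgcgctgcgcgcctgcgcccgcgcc
SLC25A38: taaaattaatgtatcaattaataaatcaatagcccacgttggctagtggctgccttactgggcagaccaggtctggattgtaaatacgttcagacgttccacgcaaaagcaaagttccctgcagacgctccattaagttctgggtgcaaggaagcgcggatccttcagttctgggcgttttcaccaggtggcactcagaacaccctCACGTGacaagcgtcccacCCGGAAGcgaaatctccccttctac
SLC25A11 had no match to any of the 5 motifs, and SLC25A38 had 1 E-box and 1 ETS core. Over the 31 carrier promoters no match to 1 motif overlapped a match to another. An E-box was found in 6 of the 31 (19.4%), against 9.27% of promoters of genes in the table. The carriers with an E-box had log2 ratios between -0.60 (SLC25A38) and 0.24 (SLC25A36). The ETS core was found in 7 of 31 (22.6%), against 17.0%, and the NRF1 core in 0 of 31, against 4.96%.

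In hg19 SLC25A11, on the minus strand of chromosome 17, spans 4840425 to 4843546, and its start overlapped RNF167 on the opposite strand, which was at 23.6 in LAST shRNA cells and 23.8 in control shRNA cells (-0.01). SLC25A38, on the plus strand of chromosome 3, spans 39424839 to 39438842 and overlapped no other record. No carrier overlapped another record on its own strand. The longest coding transcript of SLC25A11 has 8 exons and that of SLC25A38 has 7.

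**Figure D3:**
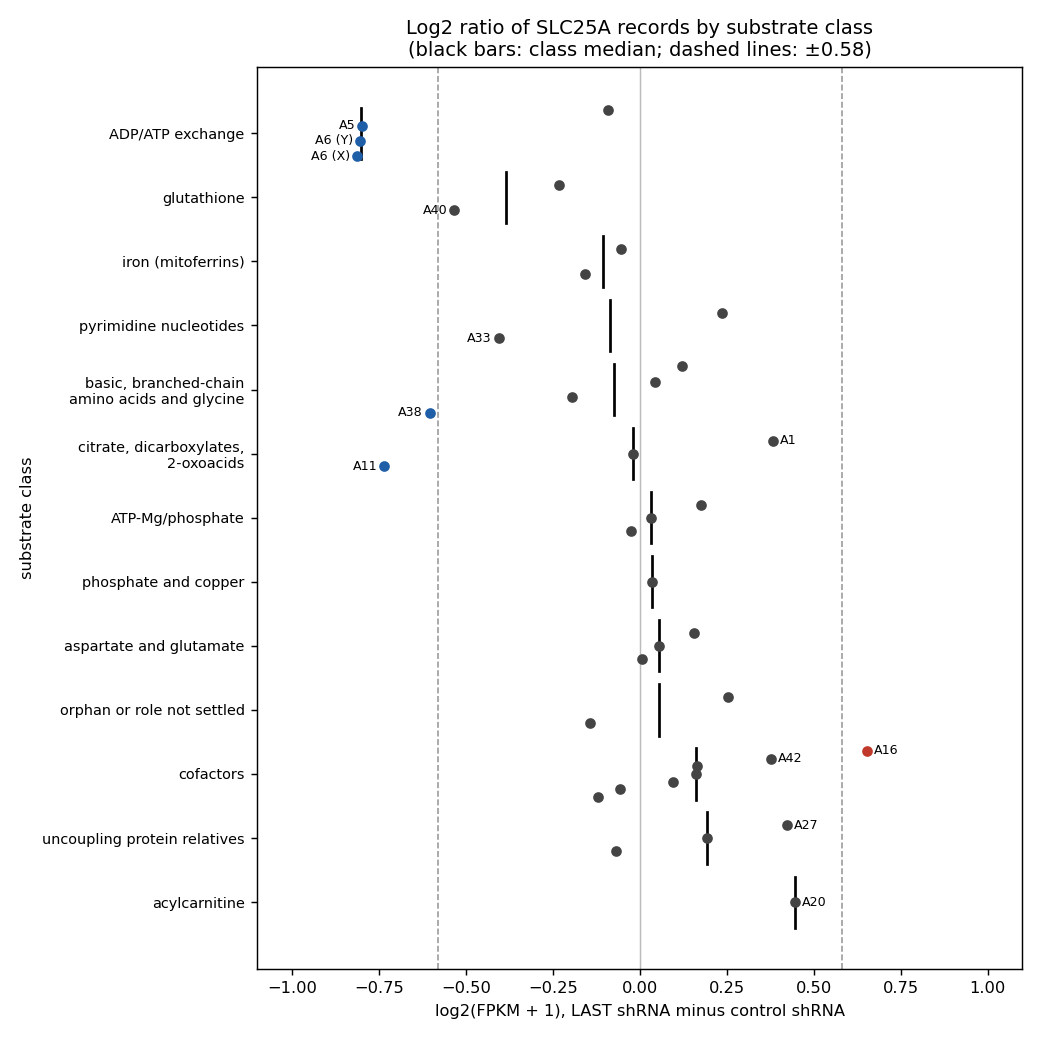
Log2 ratio of each SLC25A record (points), by substrate class, with the class median as a black bar and dashed lines at the threshold of 0.58 in both directions. The ADP/ATP carriers are the class farthest below 0 (median -0.80), with SLC25A4 alone near 0, and SLC25A16 is the one point above the upper line.

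The carriers of cofactors tended to small positive ratios, with a median of 0.16 over 7 measured genes. Of these, 1 was higher past the threshold (14.3%, against 6.80% of all records). SLC25A16, a carrier linked to coenzyme A, was the higher carrier, at 2.06 in LAST shRNA cells against 0.947 in control shRNA cells (0.65). SLC25A42, which carries coenzyme A, was at 1.27 and 0.749 (0.38). Both are weakly expressed, and without records under an FPKM of 1 in a library neither was counted and no carrier was higher. The folate and FAD carrier SLC25A32 was at 10.8 and 9.53 (0.16), and the NAD+ carrier SLC25A51 at 1.97 and 1.65 (0.17). SLC25A26, which imports S-adenosylmethionine, was at 2.07 in LAST shRNA cells and 1.88 in control shRNA cells (0.09). SLC25A17, a member that resides in peroxisomes, had the smallest ratio of the class, at 5.82 and 6.10 (-0.06).

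The carriers that serve iron, glutathione and pyrimidine nucleotides did not pass the threshold. The mitoferrins, which import iron for heme and iron-sulfur clusters, were close to equal, with SLC25A37 at 7.86 in LAST shRNA cells and 8.88 in control shRNA cells (-0.16) and SLC25A28 at 16.5 and 17.1 (-0.05). SLC25A40, a relative of SLC25A39, was at 3.32 in LAST shRNA cells and 5.26 in control shRNA cells (-0.53), the record just short of the lower threshold. It was past it with a pseudocount of 0.5 (-0.59) and 0.1 (-0.65). SLC25A39 was at 43.6 and 51.4 (-0.23). Of the pyrimidine nucleotide carriers, SLC25A33 was at 7.76 and 10.6 (-0.41) and SLC25A36 at 2.56 and 2.02 (0.24). SLC25A40 overlapped the start of DBF4 on the opposite strand, which was at 11.2 in LAST shRNA cells and 15.7 in control shRNA cells (-0.45), and the part of shared reads was not tested.

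The remaining carriers also lay between the thresholds. The phosphate carrier SLC25A3, which also brings copper to cytochrome c oxidase, had a log2 ratio of 0.03. SLC25A20, which imports acylcarnitines for fatty acid oxidation, was the record just short of the upper threshold, at 9.002 in LAST shRNA cells and 6.34 in control shRNA cells (0.45). The calcium-regulated ATP-Mg/phosphate carriers stayed together, with SLC25A23 at 16.4 and 16.0 (0.03), SLC25A24 at 8.86 and 9.04 (-0.03) and SLC25A25 at 4.35 and 3.74 (0.18). Of the relatives of uncoupling proteins, SLC25A27 was at 1.21 and 0.653 (0.42), SLC25A30 at 6.15 and 5.25 (0.19) and SLC25A14 at 2.90 and 3.09 (-0.07). SLC25A43, whose substrate is not settled, was at 6.85 and 5.58 (0.25), and SLC25A46, an outer membrane member that acts in mitochondrial shape, was at 1.58 and 1.84 (-0.14).

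Other genes of mitochondrial transport were near the whole table in their share of lower members, and the medians of the lists lay between -0.20 and 0.10. Of 45 measured genes in 9 lists of channels, transporters and shuttle or iron enzymes, 4 were lower (8.89%, against 5.88% of all records) and 1 was higher (2.22%, against 6.80%) past the threshold, and the median log2 ratio was -0.06. SMDT1, an essential subunit of the calcium uniporter, was at 3.75 in LAST shRNA cells and 8.15 in control shRNA cells (-0.95), whereas the pore subunit MCU was at 7.25 and 8.69 (-0.23). SFXN2, a sideroflexin, was at 1.31 and 2.63 (-0.65), and the serine carrier SFXN1 was at 27.0 and 23.7 (0.18). The porins of the outer membrane did not pass the threshold, with VDAC2 the lowest at 55.2 and 75.01 (-0.44). Of the pyruvate carrier subunits, MPC1 was at 6.43 and 8.27 (-0.32) and MPC2 had a log2 ratio of -0.02. Among ABC transporters of mitochondria ABCB6 had the largest ratio (-0.33), and among carriers with other names MTCH1 did (0.25).

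Of 10 measured genes of iron-sulfur and heme synthesis, 1 was lower (10%, against 5.88% of all records) and 1 was higher (10%, against 6.80%). The lower one was GLRX5, a glutaredoxin that hands on iron-sulfur clusters, at 6.59 in LAST shRNA cells and 24.1 in control shRNA cells (-1.72). FECH, which inserts iron into protoporphyrin to form heme, was the 1 that was higher, at 9.41 and 5.90 (0.59). ALAS1, which uses the glycine that SLC25A38 imports, was at 23.8 and 24.9 (-0.06). Of 8 genes of citrate synthesis and use none passed the threshold, against 5.88% lower and 6.80% higher over all records. ACLY, which cleaves the citrate that SLC25A1 exports, was at 67.7 and 56.4 (0.26).

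**Figure D4:**
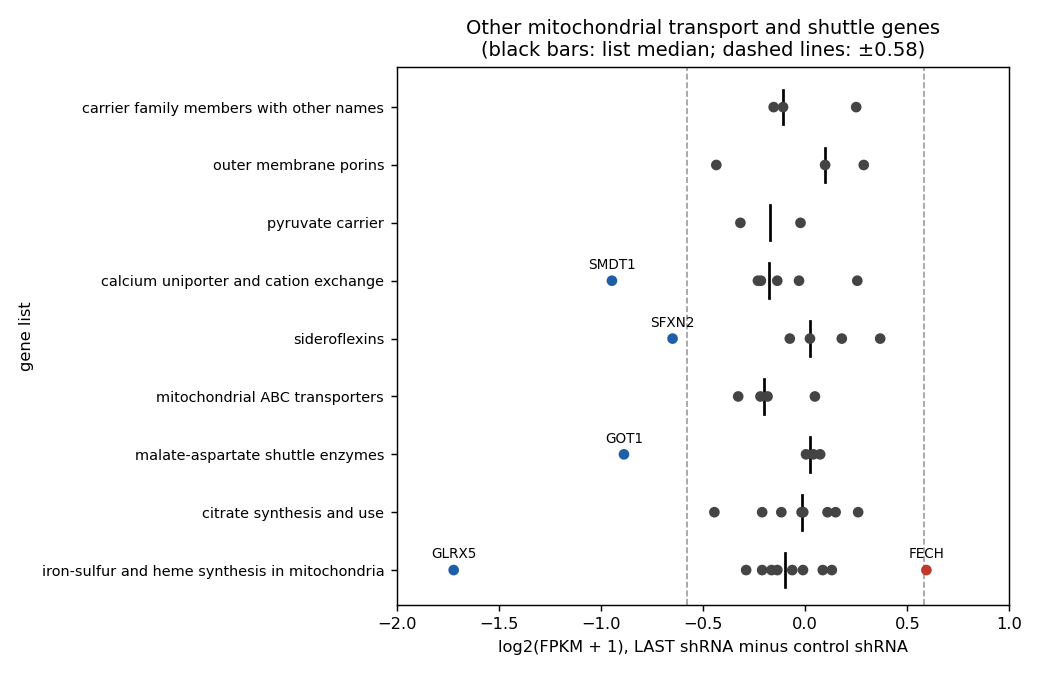
Log2 ratio of each measured gene (points) in 9 lists of mitochondrial transport and shuttle genes, with list medians as black bars and dashed lines at the threshold of 0.58 in both directions. SMDT1, SFXN2, GOT1 and GLRX5 lie past the lower line and FECH lies past the upper one.

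The groups most like the carriers are given with no test of a difference. Of the carriers 13.5% were lower and 2.70% higher, and of all records 5.88% were lower and 6.80% higher. The carrier share counts both the X and the Y record of SLC25A6, and with these summed 4 of 36 carrier genes were lower. Of 78 subunits of the respiratory chain and ATP synthase 3 were lower (3.85%) and 6 higher (7.69%), with a median of 0.01. Of 39 genes of mitochondrial protein import 4 were lower (10.3%) and 3 higher (7.69%), with a median of -0.09. Of 165 other solute carriers 8 were lower (4.85%) and 15 higher (9.09%), with a median of 0.06. The SD of log2 ratios across genes was 0.36 for the carriers, 0.41 for the respiratory chain, 0.95 for protein import, 0.52 for other solute carriers and 0.52 for all records. The import genes reached down to a log2 ratio of -5.21.

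Coding length was alike among the carriers, though this is not independent of the choice by symbol, because they share a fold. Their longest coding sequence had a median of 321.5 codons, and 29 of 36 genes (80.6%) lay between 250 and 400 codons, against 21.4% of 11269 other genes of the table. The calcium-binding members SLC25A12 and SLC25A13 were the longest, with 678 and 676 codons. The longest coding transcript had a median of 8 exons, against 9 in other genes.

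Over the whole table, records with most of the transcript in 1 exon passed the threshold more often. Where the largest exon held at least 50% of the longest coding transcript, 8.14% of 6225 records were lower and 9.03% higher, and where it held less, 3.10% of 5089 were lower and 3.89% higher. Among the carriers, all 5 lower records were among the 15 with a largest exon under 50% (33.3%), and none of the other 22 was lower. These 5 records belong to only 4 genes, because the X and Y records of SLC25A6 describe the same sequence and are counted separately. The largest exon held 38.2% of the transcript in SLC25A5, 40.1% in SLC25A6, 40.4% in SLC25A11 and 44.4% in SLC25A38. SLC25A16, the higher carrier, had a largest exon of 85.6%. The lower members outside the family fell on both sides, with 38.4% for GOT1, 74.4% for SMDT1, 84.9% for SFXN2 and 94.0% for GLRX5.

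**Figure D5:**
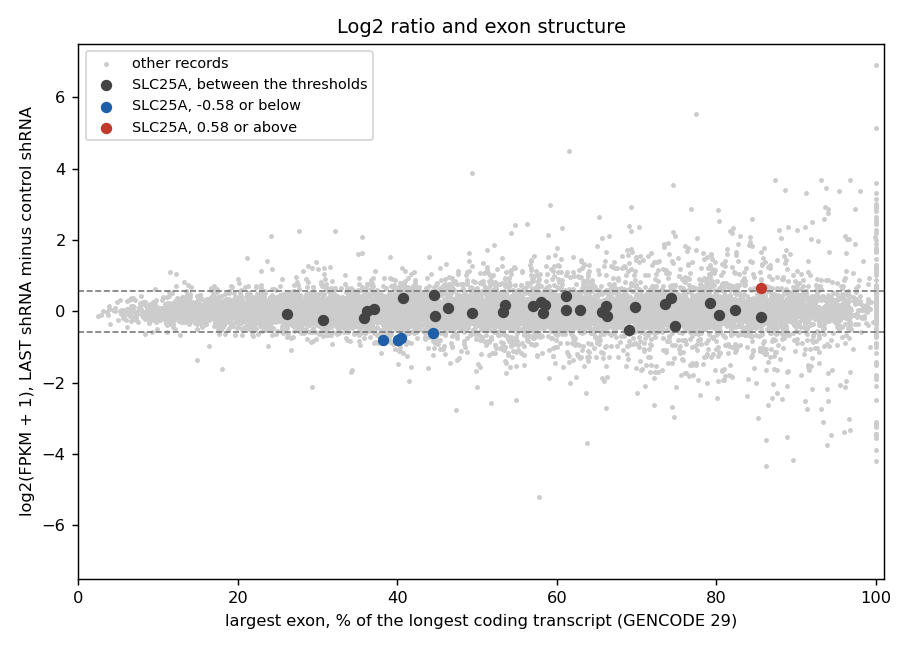
Log2 ratio of every record against the share of the longest coding transcript held by its largest exon in GENCODE 29, with SLC25A records as large points and dashed lines at the threshold of 0.58 in both directions. The 5 lower SLC25A records, which belong to 4 genes, sit between 38.2% and 44.4%, where the grey points are denser around 0. SLC25A16 sits at 85.6%.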

How the data were processed

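The deposited values are FPKM per gene, which the authors made from 1 library per group. The submitters' processing notes name cutadapt, FastQC, HISAT2, StringTie and hg19. Whether counting used strand, how transcripts were combined and which versions ran is not given in the sources used here. Depth is unknown, so no interval is given.

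Libraries were grouped by their titles. Log2 ratios of FPKM + 1 were computed with no further scaling, and the study's threshold of 0.58 was applied. No test was made, because a group is 1 library. The counting was tested on simulated data, with planted changes larger than those of the lower carriers. No changes near the threshold were planted. The members, substrate classes, lists and motifs were chosen with earlier results of these data known. The SLC25A records are named one by one, except that 1 carrier and 1 list gene are not reported here. From each list, genes past the threshold or the largest ratio are given, with partners named for their role after values were seen. Exon structure, pseudogene names and 50-base windows came from GENCODE 29 (GRCh38), joined by gene identifier, with which 99.1% of records matched. Promoters came from RefSeq (GRCh38.p14), where 31 of 36 carrier genes matched by symbol. Protein sequences were not used here, so the carrier signature was not examined. Alternatives were pseudocounts of 0.1 and 0.5, a median ratio of 0, TPM, equal upper quartiles, filters at an FPKM of 1, a threshold of 1, a largest exon under 50%, no overlap on the same strand, and no value of 0. Summing the SLC25A6 records and leaving out the ADP/ATP carriers were added after seeing the data. Scripts ran in Python 3.11.15 with pandas 2.3.3, numpy 2.4.6 and, for figures, matplotlib 3.10.9.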

Additional observations from a re-analysis of the deposited data

How the results depend on the processing

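The 5 lower SLC25A records were counted as lower with each pseudocount, scaling and filter run, and the count was 5 or 6 in all of these. The share of all records that was lower moved more, between 3.10% (largest exon under 50%) and 8.75% (pseudocount of 0.1), with 8.56% for TPM. At a threshold of 1 the count of lower carriers was 0, with 0 higher carriers, and over all records 286 were lower and 318 higher. The count of higher carriers was 3 with a pseudocount of 0.1 and with TPM, where all records gave 1242 and 1198 higher. TPM values are larger here than FPKM, so the added 1 weighs less. The count was 0 with only records that reached an FPKM of 1 in each library, where fewer records remain, and the median of the relatives of uncoupling proteins was then 0.062. With a largest exon under 50% it was also 0, the carrier median was -0.12 over 15 records, and over all records 158 were lower and 198 higher. No SLC25A record changed sign past the threshold under a scaling, whose median over all records stayed between 0.00 and 0.01. With the SLC25A6 records summed, 4 genes were lower and 1 was higher. No paired analysis was possible because each group has 1 library. Without replicates, none of these counts separates the effect of the shRNA from variation between libraries.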

Other observations

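The genes next to the carriers past the threshold had ratios on both sides of 0. On chromosome X the nearest record to SLC25A5 is another carrier, SLC25A43, which ends 13921 bases before it and was at 6.85 in LAST shRNA cells and 5.58 in control shRNA cells (0.25), while SLC25A5 was at -0.80. On its other side CXorf56 was at 9.89 and 13.9 (-0.45). ASMTL, the nearest record above SLC25A6 in the pseudoautosomal region, was at 8.93 and 5.91 in its X record (0.52). Its Y record, at 2.96 and 1.65 (0.58), was higher past the threshold, opposite to SLC25A6. GTPBP6, the nearest record below SLC25A6 but 1274160 bases away, had log2 ratios of 0.00 (X) and -0.29 (Y). PFN1, which encodes the actin-binding protein profilin, lies 5400 bases from SLC25A11 and was at 295 and 213 (0.47), and MINK1 on the other side was at 9.08 and 11.4 (-0.30). RPSA, a ribosomal protein gene 9337 bases from SLC25A38, was at 261 and 229 (0.19), whereas CSRNP1, 228785 bases away on the other side, was lower past the threshold like SLC25A38, at 1.102 and 2.99 (-0.93). For SLC25A16 the nearest record is DNA2, a nuclease and helicase gene, at 5.25 and 6.62 (-0.29), and TET1 on the other side was at 0.619 and 0.522 (0.09).

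Some carriers shared much of their transcript with other annotated genes, so that their FPKM may depend on how reads were assigned. Of the 50-base windows of the longest coding transcript, 97.5% of SLC25A32 and 59.3% of SLC25A10 also occurred in transcripts of other genes, against 10.6% of SLC25A11 and 4.19% of SLC25A38. Both of the most shared ones lay between the thresholds, with log2 ratios of 0.16 and -0.02.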
